A study of Homo sapiens with 7 samples.

Results

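Cholesterol and fatty acids are built from acetyl-CoA, and the genes of both routes were followed here in Huh-7 cells after depletion of IGF2BP1. The set holds 33 genes, chosen by name from the 58174 genes of the deposited table, and all 33 were found. It comprises 8 genes of the mevalonate route up to squalene, 10 of the steps from squalene to cholesterol, 6 regulators and carriers of the sterol response, and 9 of fatty acid synthesis and desaturation. Huh-7 is an established cell line of hepatocellular carcinoma, and IGF2BP1 is an oncofetal mRNA-binding protein. The study asked which transcripts depend on IGF2BP1 in such cells. Cells received a control siRNA (siC, 3 libraries) or a pool of siRNAs against IGF2BP1 (siImp1, 4 libraries) and were harvested 72 h after transfection. Both groups were the same line, in the same serum-containing medium, and no other allele or agent was named. As all libraries are of this cell line, they stand for it and not for liver tissue.

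Mevalonate made from acetyl-CoA is converted to isoprenoids, to squalene and, after ring closure, to sterols. In hepatocytes these genes respond together to the sterol content of the endoplasmic reticulum. When sterols are scarce, SCAP escorts the membrane-bound SREBP factors (encoded by SREBF1 and SREBF2) to the Golgi, where proteases release the part that binds promoters. When sterols are abundant, INSIG proteins hold SCAP back. SREBP from SREBF2 is known mainly for cholesterol genes and SREBP from SREBF1 mainly for fatty acid genes. SREBP factors act with other factors that bind CCAAT boxes and GC boxes.

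For these reasons the promoters of the genes were searched for the letters of such elements. RefSeq promoters (GRCh38.p14, 250 bases before to 50 after the start) were matched for 29 of the 33 genes, all but ACAT2, FDFT1, SQLE and FASN. For a gene with several promoter entries the first listed was used, so another start of the same gene can hold other letters. Both strands were searched. The sterol regulatory element letters TCACNCCAC were present in 1 of the 29, that of SREBF2, and in 1.15% of all 27305 promoters. The shorter core CACNCCAC, which the longer letters contain, was present in 4 of 29 (SC5D, INSIG1, SREBF2 and SCD) and in 5.74% of all promoters. CCAAT, read as ATTGG on the other strand, was present in 18 of 29 (62.1%), against 35.7% of all promoters and 37.5% of the 8550 promoters of genes tested here. GGGCGG was present in 27 of 29 (93.1%), against 44.6% of all promoters and 71% of those of tested genes. The E-box CACGTG, the same on both strands, was present in 4 of 29 (13.8%) against 10.5% of those of tested genes.

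The SREBF2 element is printed first, followed by the CCAAT box nearest before the start for genes called in any of the 3 fits described below (over all 7 libraries, without siC replicate 3, or with the GC trend removed). Several of these promoters hold more than 1 box. Each is shown as a window of 30 bases, 5′ to 3′ on the strand of the gene, with the matched letters in capitals. The distance from the first matched letter to the RefSeq start stands before each sequence.
SREBF2, chr22:41832962-41832991 (plus strand), 133 bases before the start: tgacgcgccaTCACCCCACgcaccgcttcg
HMGCS1, chr5:43313495-43313524 (minus strand), 100 bases: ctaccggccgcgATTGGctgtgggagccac
MVK, chr12:109573736-109573765 (plus strand), 46 bases: tcgcgcgctctgATTGGctggcctgaagta
MVD, chr16:88663159-88663188 (minus strand), 85 bases: ggctcgcacgggCCAATcctgtggtagcgc
MSMO1, chr4:165327623-165327652 (plus strand), 34 bases: agctctcgcaggCCAATaacgacaggacgg
SC5D, chr11:121292703-121292732 (plus strand), 56 bases: cgccggtcgctgATTGGctggccgctccag
INSIG1, chr7:155297696-155297725 (plus strand), 170 bases: cgccggcctcccATTGGttgcggccgcctc
STARD4, chr5:111512648-111512677 (minus strand), 130 bases: ctcccgcgccagCCAATccgaacaagcgca
The CCAAT letters were present both in promoters of genes with higher siImp1 levels (HMGCS1, MVD, MSMO1) and in those of genes with lower siImp1 levels (SC5D, STARD4). They were not found in the windows of PMVK, IDI1, CYP51A1, INSIG2, SREBF1, SCAP, ACACA, FADS1, FADS2, ELOVL6 and ME1. No binding was measured, so a match is a description of the letters only.

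The libraries held 12826550 to 33212205 reads on genes, of which 1.01% to 1.43% fell on the 33 genes. IGF2BP1 itself was at 81.9, 80.4 and 84.4 FPKM (fragments counted on a gene, scaled to its length in kilobases and to library size) in siC replicates 1 to 3 and at 15.6, 15.7, 16.6 and 15.3 FPKM in siImp1 replicates 1 to 4. Its level was thus reduced in every siImp1 library, to 19.2% of the siC mean. The hepatocyte markers reported here were all expressed, ALB at a siC mean of 1814 FPKM and AFP at 3151 FPKM, and over all 7 libraries APOH was the 1 marker called (48.6 ± 10.0 FPKM in siC, 154 ± 7.73 in siImp1). A fit without siC replicate 3 called APOH, AHSG, TF and RBP4 higher and TTR and FGB lower. Of 12 markers of blood, endothelium and stroma, 9 had a mean under 1 FPKM and DES was at 0 throughout. The others were PECAM1, CD14 and LYZ, of which 0 were called over all 7 libraries. CD14 was at 0.892 ± 0.396 FPKM in siC and 2.25 ± 0.283 in siImp1, and was called higher without siC replicate 3 and with the GC trend removed. LYZ was at 157 ± 8.67 and 122 ± 6.96 FPKM, and was called lower without siC replicate 3. The part of these markers in the results on lipid genes was not tested. In bulk libraries, fewer cells of a kind and less RNA per cell cannot be told apart.

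The siC replicate 3 library stands apart from both other siC libraries. Across 14711 genes its log2 difference from the mean of the other siC libraries fell with the GC content of the transcript (Spearman's rho of -0.43). Across the 33 genes rho was -0.74. These are correlations across genes of 1 library, and genes are no independent replicates. FASN, with a GC content of 65.3%, was in siC replicate 3 at 42.8% of the mean of siC replicates 1 and 2, FDPS at 51.9%, DHCR7 at 55.4% and SREBF1 at 56.0%. At the AT-rich end, ME1 was at 205% and INSIG2 at 160%. In 18 of the 33 genes siC replicate 3 was the lowest of the 7 libraries, against 31.3% of all genes tested. The siImp1 replicate 2 library was shifted the same way to a lesser extent (rho of -0.53 across the 33 genes). The median coefficient of variation of the 33 genes was 13.5% over the 3 siC libraries, 1.45% over siC replicates 1 and 2, and 5.39% over siImp1. Changes are therefore given with and without siC replicate 3. A further fit removed the GC trend of each library, which would also remove any GC-related difference between the groups.

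**Figure D1:**
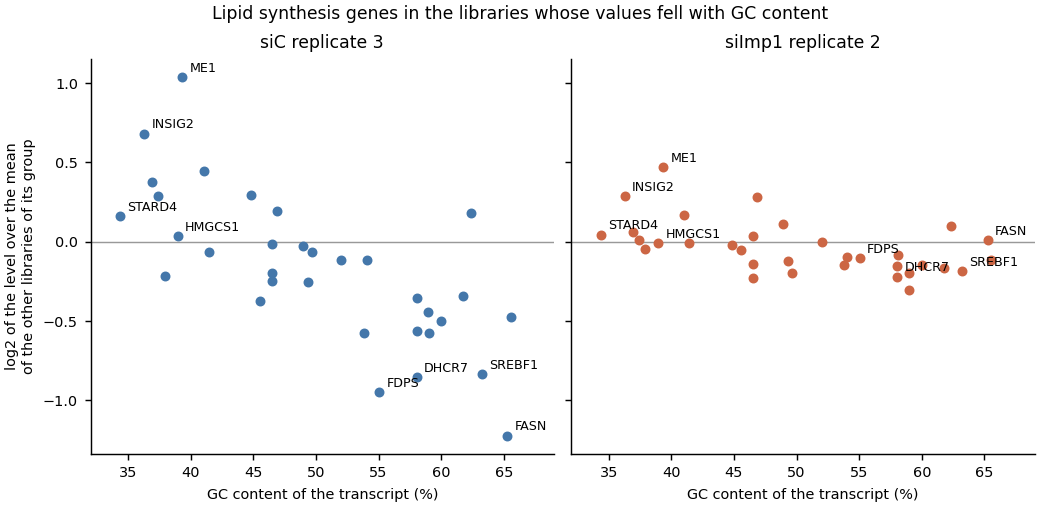
For the 33 genes, the log2 ratio of the level in siC replicate 3 (left) or siImp1 replicate 2 (right) to the mean of the other libraries of its group is plotted against the GC content of the transcript (%). Each point is 1 gene, and most points at low GC content lie higher than those at high GC content. In siC replicate 3, ME1 was at 205% and FASN at 42.8% of the other siC libraries, with exceptions such as IDI1 (GC content 37.9%) at 86.0% and TM7SF2 (62.4%) at 113%.

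Genes were tested with limma on log2(FPKM + 0.1), two-sided, with Benjamini-Hochberg adjustment over the 14839 genes whose mean reached 1 FPKM, and called at an adjusted p of at most 0.01. All 33 genes passed this filter. The labels do not say that replicates were separate cultures, so p-values measure the spread between these libraries. Over all 7 libraries 1 of the 33 genes fell, STARD4, and 0 rose, whereas 2.28% of all genes tested fell and 1.65% rose. At an unadjusted p under 0.05 there were 3 lower and 12 higher genes among the 33, and 2200 lower and 1638 higher among the 14839. The fitted change was above 0 for 24 of the 33 genes (72.7%), against 47.1% of all genes tested, and its median was 0.17 against -0.017 (log2). The siImp1 libraries lay above every siC library for 13 of the 33 genes (39.4%), against 11.9% of all genes, and below every siC library for 2 (6.06%), against 15.1%.

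Without siC replicate 3, limma called 2 of the 33 genes lower (STARD4 and SC5D) and 4 higher (HMGCS1, MSMO1, INSIG1 and INSIG2), against 6.67% and 3.59% of all genes. The median change of the 33 genes was then 0.09. The groups did not overlap for 15 higher and 7 lower genes, where all genes gave 20.5% and 29.3%. With the GC trend removed, 2 genes were called lower (STARD4 and SC5D) and 4 higher (MVK, MVD, MSMO1 and FADS2), against 3.42% and 3.15% of all genes, with a median of 0.20. STARD4 was the 1 gene called in each of these 3 fits. The number of higher genes thus differed between these 3 fits. It also changed under other settings that kept all 7 libraries, which are given below with the processing. Leaving out any of the 6 other libraries gave 0 calls among the 33 genes, and over all genes between 53 and 109 lower and between 66 and 86 higher.

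**Figure D2:**
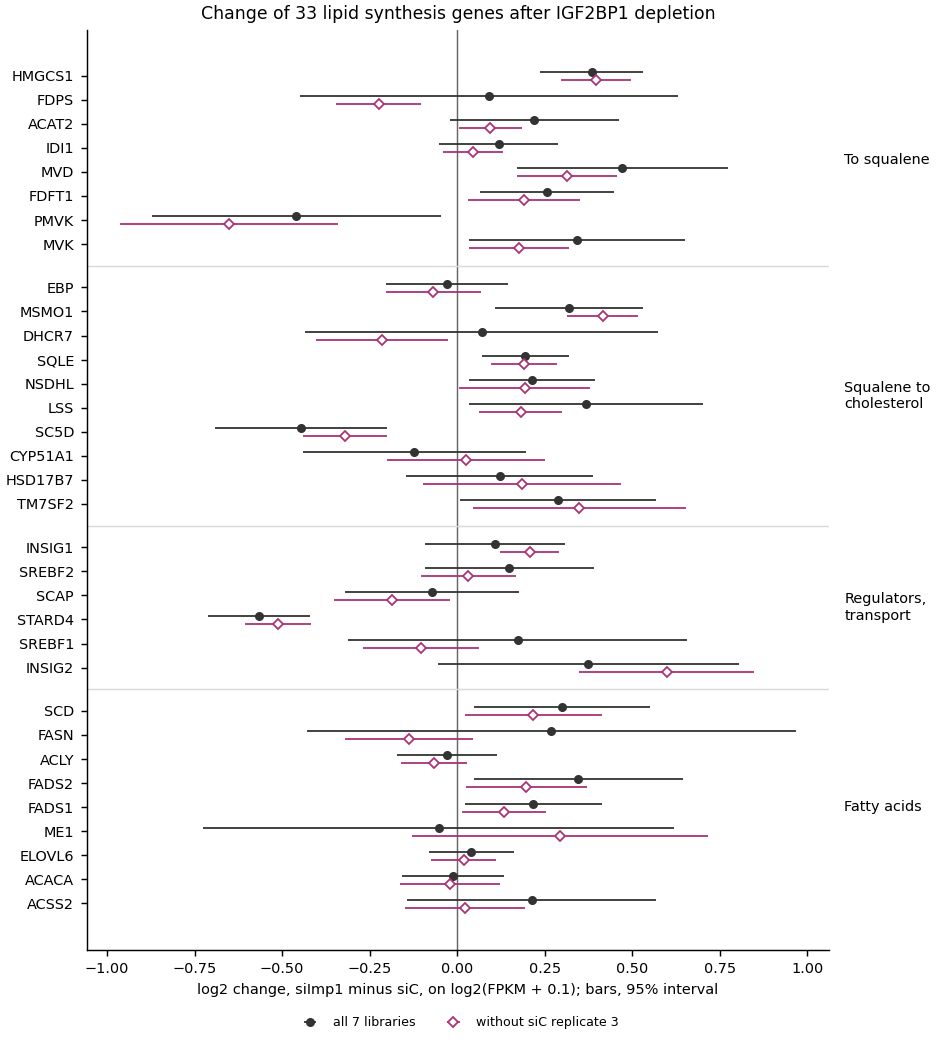
The log2 change of each of the 33 genes (siImp1 minus siC, on log2(FPKM + 0.1)) is plotted with its 95% interval, over all 7 libraries (black circles) and without siC replicate 3 (open diamonds). STARD4 and SC5D lie below 0 and HMGCS1, MVD and MSMO1 above 0 in both fits, and the intervals of FASN, FDPS, DHCR7 and SREBF1 are wide over all 7 libraries and narrow without siC replicate 3.

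Of the 8 genes from acetyl-CoA to squalene, 0 were called over all 7 libraries, 7 had a fitted change above 0, and the median change was 0.24, or 0.14 without siC replicate 3. HMGCS1, the cytosolic synthase that condenses acetyl-CoA with acetoacetyl-CoA ahead of mevalonate, was the most abundant of them. Its levels were 225, 240.2 and 238 FPKM in siC and 302, 305, 308 and 311 FPKM in siImp1. Each siImp1 library was above each siC library, and siC replicate 3 did not stand apart for this gene. The change was 0.38 (log2; SE 0.0624; 95% interval 0.24 to 0.53), with a limma adjusted p of 0.0106 that narrowly missed the threshold. Without siC replicate 3 it was 0.40 (adjusted p = 0.00197). Over the 19 alternatives HMGCS1 had adjusted p-values from 4.33e-05 to 0.23.

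MVD, which decarboxylates mevalonate diphosphate, had the highest fitted change of the 33 genes over all 7 libraries. Its levels were 45.4, 44.5 and 32.3 FPKM in siC and 53.8, 52.6, 59.6 and 57.6 FPKM in siImp1, so that the groups did not overlap and siC replicate 3 was the lowest. The change was 0.47 (SE 0.128, limma adjusted p = 0.0599), 0.31 without siC replicate 3 (adjusted p = 0.0129) and 0.51 with the GC trend removed (adjusted p = 0.00149). MVK, mevalonate kinase, was the least abundant of the 8, with 13.2, 13.0 and 9.26 FPKM in siC and 15.2, 13.7, 15.4 and 14.9 FPKM in siImp1. Its change was 0.34 (SE 0.131, adjusted p = 0.155), and 0.18 without siC replicate 3. With the GC trend removed it was 0.37 and passed (adjusted p = 0.00556). MVK overlaps MMAB on the other strand and the use of strand in counting was not stated, so reads of both may have been mixed.

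The other genes of this stretch whose groups did not overlap were ACAT2, IDI1 and FDFT1. ACAT2, the thiolase that makes acetoacetyl-CoA, was at 89.4, 89.9 and 69.1 FPKM in siC and at 95.6, 93.3, 95.3 and 98.9 FPKM in siImp1. Beside siC replicates 1 and 2 the siImp1 libraries were only slightly higher, and the change went from 0.22 (SE 0.103, limma adjusted p = 0.23) to 0.09 without siC replicate 3. ACAT2 overlaps SOD2 and TCP1 on the other strand. IDI1, the isopentenyl diphosphate isomerase, was at 70.7, 70.5 and 60.7 FPKM in siC and at 72.0, 71.3, 74.7 and 73.7 FPKM in siImp1, with a change of 0.12 (SE 0.0722, adjusted p = 0.365). Its groups are separated by less than 1 FPKM, and without siC replicate 3 the change was 0.05. FDFT1, squalene synthase, was at 34.3, 33.7 and 29.7 FPKM in siC and at 37.9, 36.1, 39.2 and 42.3 FPKM in siImp1, with a change of 0.26 (SE 0.0815, adjusted p = 0.0964), or 0.19 without siC replicate 3.

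FDPS and PMVK differed from the rest of the stretch. FDPS, which makes farnesyl diphosphate, was at 107, 105 and 55.0 FPKM in siC and at 88.9, 86.1, 92.8 and 95.4 FPKM in siImp1. The siImp1 libraries lay between siC replicate 3 and the other siC libraries, so the sign of the change depends on that library, with 0.09 over all 7 libraries and -0.22 without it (limma adjusted p = 0.0224). FDPS has processed pseudogenes, and reads shared with them are uncertain. PMVK, phosphomevalonate kinase, was at 31.0, 31.0 and 20.8 FPKM in siC and at 22.4, 16.9, 18.0 and 22.1 FPKM in siImp1. It was the 1 gene of the 8 with a fitted change below 0 over all 7 libraries, -0.46 (SE 0.175, adjusted p = 0.152). Without siC replicate 3 its groups did not overlap and the change was -0.65 (adjusted p = 0.015).

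Of the 10 genes from squalene to cholesterol, 0 were called over all 7 libraries, 7 had a fitted change above 0 and the median was 0.16, or 0.18 without siC replicate 3. MSMO1, an oxidase in the removal of methyl groups from the sterol ring, was at 128, 133 and 159.5 FPKM in siC and at 180.3, 175, 171 and 169.7 FPKM in siImp1. All siImp1 libraries were above all siC libraries, and here siC replicate 3 was the highest of its group. The change was 0.32 (SE 0.0894, limma adjusted p = 0.0663) and 0.42 without siC replicate 3 (adjusted p = 0.00178). It was 0.34 with the GC trend removed (adjusted p = 0.00866). MSMO1 was the 1 gene called higher in both of these fits.

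SC5D, a desaturase of a late step, went the other way. It was at 17.3, 17.7 and 22.8 FPKM in siC and at 14.4, 14.5, 13.8 and 13.3 FPKM in siImp1, and its groups did not overlap. The change was -0.45 (SE 0.104; 95% interval -0.69 to -0.20) with a limma adjusted p of 0.0368. SC5D passed without siC replicate 3, at -0.32 (adjusted p = 0.00658), and with the GC trend removed, at -0.43 (adjusted p = 0.00265). MSMO1 and SC5D are near in GC content (37.4% and 36.9%), and both were highest within siC in replicate 3, with changes of opposite sign. The part of GC content in these changes was not tested.

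SQLE, squalene epoxidase, had little spread within either group. It was at 58.3, 57.1 and 57.3 FPKM in siC and at 67.8, 67.0, 64.4 and 64.3 FPKM in siImp1. The groups were fully separated, and the change was 0.19 (SE 0.0527, limma adjusted p = 0.0598), and again 0.19 without siC replicate 3 (adjusted p = 0.0171). LSS, which closes the sterol ring system, was at 26.4, 25.5 and 17.6 FPKM in siC and at 29.8, 28.2, 30.9 and 28.8 FPKM in siImp1. Its change of 0.37 (SE 0.142, adjusted p = 0.157) was 0.18 without siC replicate 3. TM7SF2, a sterol reductase, had the lowest level of the 33 genes, with 3.32, 4.06 and 4.18 FPKM in siC and 4.36, 4.96, 4.25 and 5.31 FPKM in siImp1. It rested on 192 to 443 reads per library, overlaps VPS51 on its own strand, and had a change of 0.29 (SE 0.118, adjusted p = 0.181), or 0.35 without siC replicate 3.

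The other sterol genes had overlapping groups over all 7 libraries. EBP, a sterol isomerase, was the most abundant gene of this stretch with 244, 241 and 224 FPKM in siC and 229.6, 219.9, 227 and 249 FPKM in siImp1. Its change was -0.03, with a 95% interval from -0.20 to 0.14 (limma adjusted p = 0.851), and -0.07 without siC replicate 3. NSDHL, which acts with MSMO1, was at 35.1 ± 1.65 FPKM in the siC group (SD, n = 3) and 40.8 ± 2.99 FPKM in the siImp1 group (n = 4), a change of 0.21, or 0.19 without siC replicate 3. HSD17B7, the ketoreductase of the same demethylation, was at 5.76 ± 0.522 and 6.29 ± 0.767 FPKM, a change of 0.12 (0.19 without siC replicate 3), and may share reads with near-identical pseudogenes. CYP51A1, the lanosterol demethylase, was at 15.3 ± 2.86 and 14.0 ± 1.36 FPKM, and its change of -0.12 was 0.03 without siC replicate 3. CYP51A1 overlaps AKAP9 on the other strand. DHCR7, the reductase of a final step, was at 115, 113 and 63.1 FPKM in siC and at 98.2, 87.6, 105.8 and 102 FPKM in siImp1. Like FDPS, it had a change that turned from 0.07 to -0.21 without siC replicate 3 (adjusted p = 0.094).

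**Figure D3:**
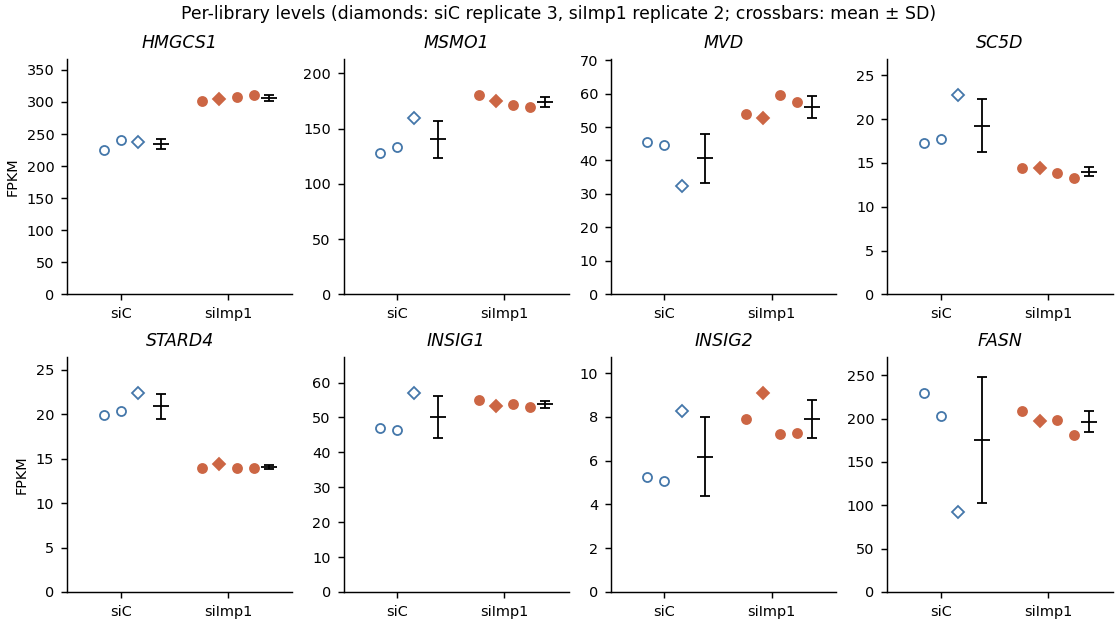
Levels in FPKM are plotted for 8 of the genes, with 1 point per library (siC open, siImp1 filled; diamonds are siC replicate 3 and siImp1 replicate 2) and the mean ± SD of each group as a crossbar. The siImp1 libraries of STARD4 sit between 13.9 and 14.4 FPKM, below all siC libraries, and those of HMGCS1 between 302 and 311 FPKM, above all siC libraries, whereas siC replicate 3 of FASN, at 92.7 FPKM, widens its siC group.

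Among the 6 regulators and carriers STARD4 fell and 0 rose over all 7 libraries, and the median change was 0.13, or -0.036 without siC replicate 3. STARD4 encodes a soluble protein that moves cholesterol between membranes. Its levels were 19.9, 20.3 and 22.5 FPKM in siC and 13.9, 14.4, 13.9 and 14.0 FPKM in siImp1. All 4 siImp1 libraries were below all 3 siC libraries, at 67.3% of the siC mean, or 70.0% of the mean of siC replicates 1 and 2. The change was -0.57 (SE 0.0619; 95% interval -0.71 to -0.42; limma adjusted p = 0.00256). It was -0.51 without siC replicate 3 (adjusted p = 0.000722) and -0.55 with the GC trend removed (adjusted p = 0.00223). Leaving out siC replicate 1 or 2 or any 1 siImp1 library ended the call at values between -0.60 and -0.56, with adjusted p-values between 0.0104 and 0.0168.

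INSIG1 and INSIG2, which retain SCAP in the endoplasmic reticulum, were not called over all 7 libraries and were both called higher without siC replicate 3. INSIG1 was at 46.9, 46.3 and 57.1 FPKM in siC and at 55.1, 53.1, 54.0 and 53.0 FPKM in siImp1. The siImp1 libraries lay above siC replicates 1 and 2 and below siC replicate 3, and the change was 0.11 over all 7 libraries (limma adjusted p = 0.485) and 0.21 without siC replicate 3 (adjusted p = 0.00876). INSIG2 was at 5.25, 5.06 and 8.26 FPKM in siC and at 7.92, 9.11, 7.24 and 7.27 FPKM in siImp1. Here siC replicate 3 lay within the siImp1 range. The change was 0.37 (adjusted p = 0.25) over all 7 libraries and 0.60 (adjusted p = 0.00973) without siC replicate 3. Their transcripts had a GC content of 44.8% and 36.3%, and in siC replicate 3 they were at 123% and 160% of the mean of siC replicates 1 and 2. The genes of the set nearest to INSIG1 in GC content (45.5% to 46.9%) were mostly lower in that library than in siC replicates 1 and 2. ACAT2 was at 77.0%, SCD at 84.2%, FDFT1 at 87.3% and SQLE at 99.2% of the mean of those libraries, whereas HSD17B7 was at 114%. The part of GC content in the values of INSIG1 and INSIG2 was not tested. With the GC trend removed the changes of INSIG1 and INSIG2 were 0.13 and 0.39 and were not called (adjusted p = 0.275 and 0.0616). With siC replicate 3 and siImp1 replicate 2 both left out, they were 0.21 and 0.53 and both were called (adjusted p = 0.00774 and 0.00473). The INSIG1 to INSIG2 ratio was 8.93, 9.16 and 6.92 in siC and 6.96, 5.83, 7.46 and 7.28 in siImp1. The groups overlapped through siC replicate 3, whereas siC replicates 1 and 2 were above all siImp1 libraries.

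The genes of the SREBP factors and of their escort were not called. SREBF2 was at 43.3, 42.7 and 33.7 FPKM in siC and at 45.8, 40.7, 44.3 and 45.3 FPKM in siImp1, with a change of 0.15 and a 95% interval from -0.09 to 0.39. Without siC replicate 3 its change was 0.03, within -0.10 to 0.17. SREBF1 was at 20.2, 19.8 and 11.2 FPKM in siC and at 18.8, 16.9, 19.9 and 19.1 FPKM in siImp1, so that siC replicate 3 was far below the others. Its change of 0.17 turned to -0.10 without that library, with a 95% interval of -0.27 to 0.06. SREBF1 overlaps RAI1 on the other strand. SCAP was at 30.4 ± 4.22 FPKM in the siC group (SD, n = 3) and 28.8 ± 1.78 FPKM in the siImp1 group (n = 4), a change of -0.07, and -0.19 without siC replicate 3. The SREBF2 to SREBF1 ratio was 2.14, 2.15 and 3.0 in siC and 2.44, 2.40, 2.23 and 2.37 in siImp1. The siC mean of 2.43 ± 0.493 was above the siImp1 mean of 2.36 ± 0.0923, but siC replicates 1 and 2 were below all siImp1 libraries, so that the direction rests on siC replicate 3.

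Of the 9 fatty acid genes, 0 were called over all 7 libraries or without siC replicate 3, and the median change went from 0.21 to 0.02 between these fits. SCD, which introduces the double bond of monounsaturated fatty acids, was the most abundant of all 33 genes. Only 0.431% of the genes tested had a siC level at or above its own. It was at 521, 527 and 441 FPKM in siC and at 612, 541, 644 and 646 FPKM in siImp1. The lowest siImp1 library, replicate 2, was just above the highest siC library. The change was 0.30 (SE 0.107, limma adjusted p = 0.13) and 0.22 without siC replicate 3 (adjusted p = 0.102). With siC replicate 3 and siImp1 replicate 2 both left out it was 0.27 and passed (adjusted p = 0.00697).

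FADS1 and FADS2, the desaturases of polyunsaturated fatty acids, are neighbours that overlap on opposite strands, so their reads may be mixed. FADS2 also overlaps FEN1 on its own strand. FADS1 was at 40.8, 40.5 and 34.0 FPKM in siC and at 45.2, 41.9, 44.8 and 46.5 FPKM in siImp1, a change of 0.22 (SE 0.0827, limma adjusted p = 0.151). FADS2 was at 74.7, 71.5 and 53.7 FPKM in siC and at 83.9, 75.7, 88.0 and 88.4 FPKM in siImp1, a change of 0.35 (SE 0.127, adjusted p = 0.138). In both genes the groups did not overlap, siC replicate 3 was the lowest siC library and siImp1 replicate 2 the lowest siImp1 library. FADS2 passed with the GC trend removed (0.37, adjusted p = 0.00531), where the overlapping gene FADS1 did not (0.25, adjusted p = 0.0432). The changes without siC replicate 3 were 0.13 for FADS1 and 0.20 for FADS2.

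The genes that supply and assemble the acyl chain had overlapping groups over all 7 libraries. FASN, fatty acid synthase, was at 230.1, 203 and 92.7 FPKM in siC and at 209, 198, 198.5 and 181 FPKM in siImp1. No other gene of the set had a wider 95% interval, -0.43 to 0.97 around a change of 0.27. Without siC replicate 3 the interval ran from -0.32 to 0.05 around -0.14. ME1, malic enzyme, which makes NADPH, was at 20.4, 24.4 and 46.0 FPKM in siC and at 28.3, 35.0, 23.1 and 24.4 FPKM in siImp1. Here siC replicate 3 was the highest library and the change turned from -0.05 to 0.29 without it. ACSS2, which makes acetyl-CoA from acetate, was the least abundant of the 9, with 12.7, 12.3 and 8.39 FPKM in siC and 13.8, 11.8, 13.0 and 12.3 FPKM in siImp1. Its change was 0.21 (SE 0.151, limma adjusted p = 0.438), or 0.02 without siC replicate 3. ACSS2 overlaps GGT7 on the other strand.

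ACLY, ACACA and ELOVL6 had narrow intervals near 0. ACLY, which makes acetyl-CoA from citrate, was at 109 ± 4.89 FPKM in the siC group (SD, n = 3) and 106 ± 2.89 FPKM in the siImp1 group (n = 4), with a 95% interval of the change from -0.17 to 0.11. ACACA, the carboxylase that makes malonyl-CoA, was at 12.0 ± 0.143 and 11.9 ± 0.629 FPKM, with an interval from -0.16 to 0.13. ELOVL6, an elongase, was at 15.9 ± 0.434 and 16.3 ± 0.253 FPKM, with an interval from -0.08 to 0.16. With siC replicate 3 left out the changes were -0.07 for ACLY, -0.02 for ACACA and 0.02 for ELOVL6. In these 3 genes siC replicate 3 was at 92.5% to 98.1% of the mean of siC replicates 1 and 2. ACACA overlaps C17orf78 on the other strand.

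**Figure D4:**
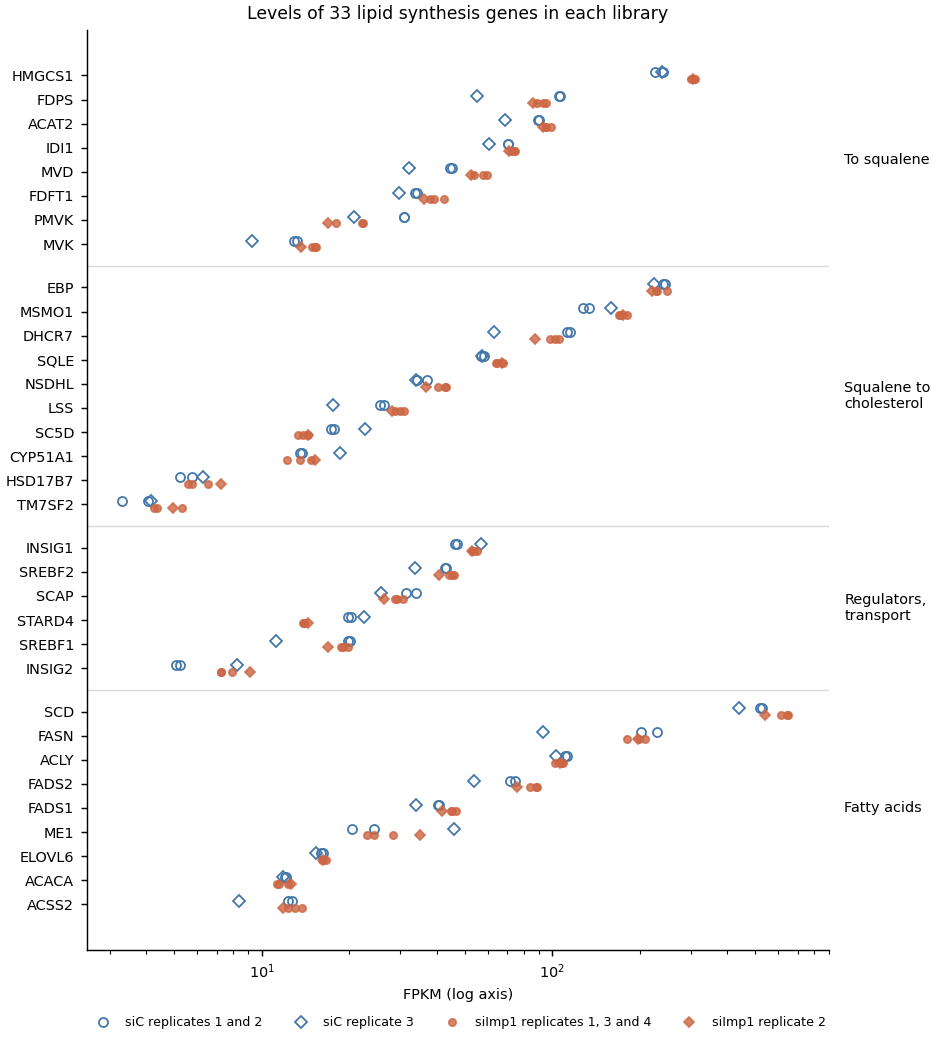
FPKM of the 33 genes on a log axis, grouped by role and ordered by siC level, with 1 symbol per library (siC open blue, siImp1 filled red; diamonds are siC replicate 3 and siImp1 replicate 2). The levels run from TM7SF2 (3.85 ± 0.465 FPKM in siC) to SCD (497 ± 47.9 FPKM), and the siC replicate 3 diamond lies to the left of the other siC symbols for genes such as FASN, FDPS and DHCR7.

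Summed over the 33 genes, levels were 2475, 2456 and 2087 FPKM in siC and 2676, 2530.2, 2693 and 2711 FPKM in siImp1. The groups did not overlap, and the siImp1 mean was 113% of the siC mean, or 108% of siC replicates 1 and 2. Of this sum the route to squalene was at 586 ± 62.1 FPKM in siC and 695 ± 17.9 FPKM in siImp1. These groups did not overlap, and the siImp1 mean was 119% of siC, or 112% of siC replicates 1 and 2. The fatty acid genes were at 955 ± 129 and 1111 ± 48.8 FPKM, with overlapping groups, and the siImp1 mean was 116% of siC, or 108% of siC replicates 1 and 2. The genes from squalene to cholesterol were at 634 ± 23.0 and 679 ± 16.3 FPKM, with groups that did not overlap. Their siImp1 mean was 107% of siC, or 105% of siC replicates 1 and 2. The regulators were at 165 ± 5.59 and 167 ± 4.64 FPKM, with overlapping groups. A sum gives more weight to its most abundant genes.

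Other genes of the same pathways were examined as 4 lists of 71 genes in all, of which 65 passed the filter. Over all 7 libraries 1 of the 65 fell and 3 rose, beside 2.28% and 1.65% of all genes. Without siC replicate 3, 4 of the 65 were called lower and 3 higher, beside 6.67% and 3.59% of all genes. The genes that cleave or degrade the sterol-sensing proteins (15 genes tested) had 0 calls and a median change of -0.095 (log2), or 2 lower calls and -0.018 without siC replicate 3. The largest change downward there was in MBTPS2, a protease that releases SREBP, and the largest upward in RNF145, a ubiquitin ligase. MBTPS2 was at 8.88, 9.87 and 12.7 FPKM in siC and at 6.14, 6.75, 6.42 and 6.94 FPKM in siImp1, and its groups did not overlap. Its change of -0.65 missed the threshold over all 7 libraries (limma adjusted p = 0.0182) and passed without siC replicate 3 (-0.51, adjusted p = 0.00541). It also passed with the GC trend removed (-0.64, adjusted p = 0.00386). The other lower call without siC replicate 3 was VCP. It was at 165, 161 and 129 FPKM in siC and at 128, 121, 132 and 131 FPKM in siImp1. Its change was -0.24 over all 7 libraries (adjusted p = 0.184) and -0.35 without siC replicate 3 (adjusted p = 0.00397). RNF145 was at 6.73 ± 0.748 FPKM in siC and 8.09 ± 0.624 FPKM in siImp1 (0.26, adjusted p = 0.139; 0.35 without siC replicate 3).

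The non-sterol branches of the mevalonate route (14 genes tested) likewise had 0 calls, with a median change of -0.068, or 1 lower call and -0.026 without siC replicate 3. RABGGTB, a subunit of the enzyme that attaches geranylgeranyl groups to Rab proteins, was at 27.6 ± 3.28 FPKM in siC and 19.9 ± 0.918 FPKM in siImp1. Its change was -0.46 (limma adjusted p = 0.0186) and -0.37 without siC replicate 3 (adjusted p = 0.00537). With the GC trend removed it was -0.45 and passed (adjusted p = 0.00196). TRIT1, which adds an isopentenyl group to tRNA, was at 7.17 ± 0.731 and 8.93 ± 0.436 FPKM, a change of 0.32 (adjusted p = 0.0595), or 0.23 without siC replicate 3.

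Of the genes of cholesterol handling, esters and bile acids, 14 of 18 were tested, with 1 call in each direction and a median change of 0.063, which turned to -0.078 without siC replicate 3. Both calls were enzymes that hydrolyse cholesteryl esters. LIPA, the lysosomal acid lipase, was at 7.74, 8.45 and 7.25 FPKM in siC and at 12.0, 11.4, 11.8 and 12.0 FPKM in siImp1, and rose by 0.59 (SE 0.0684, limma adjusted p = 0.00309). NCEH1, a neutral hydrolase, was at 10.2, 10.6 and 12.4 FPKM in siC and at 7.86, 7.73, 7.13 and 7.76 FPKM in siImp1, and fell by 0.53 (SE 0.0846, adjusted p = 0.0099). The groups of both genes did not overlap. Both also passed without siC replicate 3 and with the GC trend removed. NCEH1 lost its call without any 1 of the other 6 libraries, and LIPA without any of those 6 except siC replicate 2. AKR1D1, a reductase of bile acid synthesis, was at 0.795 ± 0.0999 and 1.66 ± 0.358 FPKM, a change of 0.96 (adjusted p = 0.0323), and HSD3B7 of the same route at 4.61 ± 0.462 and 3.16 ± 0.656 FPKM, a change of -0.55 (adjusted p = 0.0999). Leaving out siC replicate 3 gave 0.95 and -0.58. CYP7A1, CYP7B1, CYP8B1 and ABCG1 did not reach the filter.

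Of the genes of fatty acid elongation, activation and glyceride assembly, 22 of 24 were tested. Of these 2 rose and 0 fell, with a median change of 0.14, or 0.16 without siC replicate 3. ACSL1, which activates long-chain fatty acids to acyl-CoA, was at 4.69, 4.75 and 5.87 FPKM in siC and at 9.81, 10.1, 9.33 and 8.95 FPKM in siImp1. Every siImp1 library was above every siC library, and ACSL1 rose by 0.90 (SE 0.0968, limma adjusted p = 0.00249). GPAM, the mitochondrial enzyme that starts glycerolipid synthesis, was at 16.3, 17.0 and 18.1 FPKM in siC and at 26.7, 26.0, 26.2 and 26.3 FPKM in siImp1, and rose by 0.62 (SE 0.0573, adjusted p = 0.00136). In both genes siC replicate 3 was the siC library nearest to siImp1, and the changes were 1.00 and 0.66 without it. ACSL1 lost its call without any 1 of the other 6 libraries. GPAM lost it without siC replicate 2, siImp1 replicate 1 or siImp1 replicate 4. MLX, a partner of the carbohydrate-response factor, was at 15.7 ± 0.664 and 13.4 ± 1.11 FPKM, a change of -0.24 (adjusted p = 0.114), or -0.20 without siC replicate 3. THRSP and ACSL5 did not reach the filter.

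**Figure D5:**
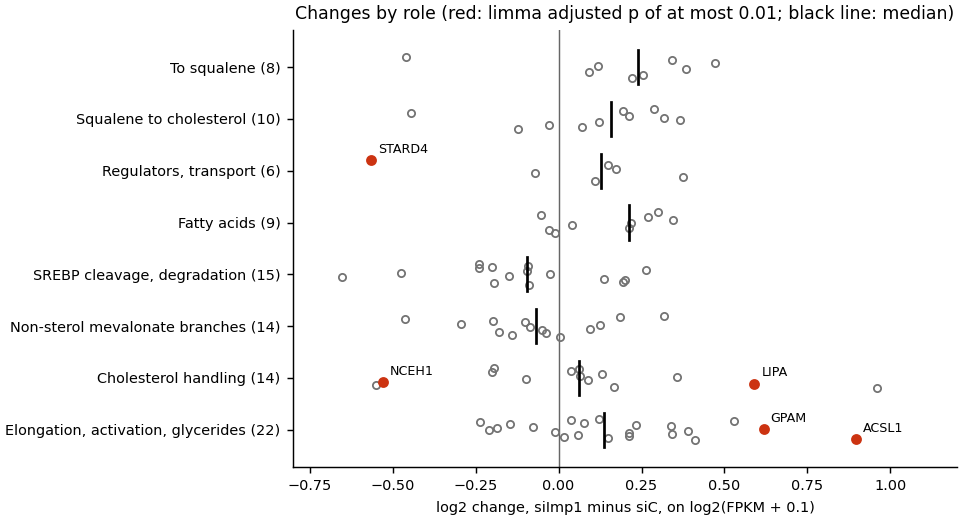
Each circle is the log2 change (siImp1 minus siC, on log2(FPKM + 0.1), all 7 libraries) of 1 gene, in the 4 role groups of the 33 genes and the 4 related lists, with the number of genes tested in brackets and a black line at the median. Red marks the 5 genes called by limma at an adjusted p of at most 0.01, STARD4 and NCEH1 below 0 and LIPA, GPAM and ACSL1 above 0.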

How the data were processed

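Total RNA-seq of 7 Huh-7 libraries was analysed. Per the study's methods and the submitters' processing notes, the authors clipped reads with Cutadapt 1.14, aligned them to GRCh38 with HISAT2 2.1.0, counted them with featureCounts 1.5.3 over Ensembl 89 annotation and normalized by TMM in edgeR 3.18.1. The deposited table holds, per gene, a length in bases (other columns: identifier, symbol, biotype) and an FPKM value for each library, calculated by the authors. Their columns of log2 fold change, p-value and FDR were not used. Whether counting used strand is not given in the sources used here. The sample titles gave each group and replicate number.

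FPKM is not a count, so limma 3.58.1 (R 4.3.3) with a mean-variance trend was run on log2(FPKM + 0.1) in place of the study's edgeR test. Fold changes on this scale understate the change of low genes. FPKM times length gave whole reads for 100% of values above 0 (tolerance 0.02, values up to 1000 reads), and these reads gave the depth and a voom fit. Read numbers per member ran from 192 to 90527. On simulated reads for siImp1 against siC, limma recovered 47 of 95 genes simulated at a 2-fold difference and 82 of 91 at a 4-fold difference, and called 1 unchanged gene, over 14791 genes. The simulation used a single dispersion of 0.02 for all genes and no GC shift in any library. Differences below 2-fold, such as those of all 33 genes, were not simulated, so their recovery is not known from it.

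Positions, GC content and overlaps came from GENCODE 44 (GRCh38) and promoters from RefSeq. The GC trend was a loess curve (span 0.3) per library against the mean of all libraries. The members and lists were chosen with earlier results of these data known. Every member is named. Values in every library are given for members called, with groups that do not overlap, or highest or lowest in a role group, and for others chosen after their values were seen (PMVK, FDPS, DHCR7, SREBF1, SREBF2, FASN and ME1). Of the related lists, genes called and the largest change in each direction are named. The fits chosen after seeing the data were those with the GC trend removed and with both shifted libraries (siC replicate 3 and siImp1 replicate 2) left out. A hepatocyte marker of the list is not reported here.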

Additional observations from a re-analysis of the deposited data

Results flagged for a closer look

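The 4 siImp1 values of each of the 33 genes were searched for a library far from the others by Dixon's criterion at the 95% level, and chance alone would mark about 1.65 genes. STARD4 was the 1 gene marked. Its siImp1 replicate 2, at 14.4 FPKM, lay apart from the other siImp1 libraries at 13.9 to 14.0 FPKM, with a gap of 0.845 of the range. The siC libraries of STARD4 were at 19.9 to 22.5 FPKM, and without siImp1 replicate 2 its change was -0.58 (limma adjusted p = 0.0113).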

How the results depend on the processing

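Of the 33 genes, 23 kept the direction of their change under all 19 alternatives (20 above 0 and 3 below), and 10 did not. The number of genes called lower (1) was 3 with array weights, 2 at a threshold of 0.05, with the GC trend removed or with both GC-shifted libraries left out, and 0 to 2 when leaving out 1 library. The number called higher (0) was 13 with array weights, 7 with both GC-shifted libraries left out, 4 with the GC trend removed, 1 with a mean of at least 5 FPKM, quantile normalization, voom, a threshold of 0.05 or protein-coding genes alone, and 0 to 4 when leaving out 1 library. With both GC-shifted libraries left out, the genes called higher were HMGCS1, MVD, MSMO1, INSIG1, INSIG2, SCD and FADS2. The median change of 0.17 was 0.095 with array weights and 0.095 to 0.22 when leaving out 1 library. Of related genes, the number called lower (1) was 0 with no filter or quantile normalization, 12 with array weights, 2 with voom, 5 at a threshold of 0.05, 3 for protein-coding genes or with the GC trend removed, 4 with both GC-shifted libraries left out and 0 to 4 when leaving out 1 library. The number called higher (3) was 18 with array weights, 5 at a threshold of 0.05 or with both GC-shifted libraries left out, and 0 to 3 when leaving out 1 library. Over all genes, 338 lower and 245 higher calls became 3245 and 2169 with array weights, 1043 and 562 with both GC-shifted libraries left out, 507 and 468 with the GC trend removed, 489 and 353 with voom and 1010 and 703 at a threshold of 0.05. Every count without siC replicate 3 is the highest of its range.

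The sign turned for ACACA (-0.012) with median centring (0.017), quantile normalization (0.054) and the GC trend removed (0.018), and ran from -0.039 to 0.012 when leaving out 1 library. It turned for ACLY (-0.029) with median centring (0.00076) and quantile normalization (0.11), and for EBP (-0.03) with quantile normalization (0.099). With array weights it turned for CYP51A1 (0.012), DHCR7 (-0.18), FASN (-0.030), FDPS (-0.21), ME1 (0.13) and SREBF1 (-0.070). With both GC-shifted libraries left out it turned for DHCR7 (-0.16), FASN (-0.14), FDPS (-0.20), ME1 (0.17) and SREBF1 (-0.058). When leaving out 1 library, values ran from -0.20 to 0.026 for CYP51A1, -0.21 to 0.22 for DHCR7, -0.14 to 0.52 for FASN, -0.22 to 0.25 for FDPS, -0.29 to 0.29 for ME1, -0.19 to 0.013 for SCAP and -0.10 to 0.32 for SREBF1. The cause was not tested.

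Same-numbered libraries of both groups did not deviate together (Pearson's r over genes of -0.026, -0.12 and -0.11 for numbers 1 to 3), so the numbers were not treated as pairs. A fit with the replicate number as a block left out siImp1 replicate 4, whose number has no siC library. In this fit 0 members and 0 related genes were called lower and 0 higher, as were 0 of all genes tested, IGF2BP1 included (limma adjusted p = 0.0944). The same libraries without the block gave 77 lower and 68 higher calls over all genes, IGF2BP1 among them. Among members and related genes they gave 0 calls, as with the block. The cause of the further loss with the block was not tested. The block fit gave 0.012 for ACACA, 0.00082 for ME1 and -0.56 for STARD4. The lowest read number of a member was 192 (TM7SF2).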
